A study of Mus musculus with 10 samples.

Results

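The genes examined were the subunits of the transcription factor NF-κB (*Rela*, *Relb*, *Rel*, *Nfkb1* and *Nfkb2*) and the genes of the IκB kinase (IKK) family (*Chuk*, *Ikbkb*, *Ikbkg*, *Ikbke* and *Tbk1*). They were chosen by gene symbol, and all 10 of the 10 listed were among the 13091 genes of the deposited tables. RNA sequencing was performed on mouse neutrophils of the 129-SVEV strain that were differentiated in culture from bone marrow progenitors immortalized with an estrogen-dependent HoxB8. There were 2 *Vim+/+* and 3 *Vim-/-* biological replicates left unstimulated, and as many given 25 ng/mL LPS for 1 hour, which made 10 libraries in 4 groups. The labels number the *Vim+/+* replicates 1 and 3 in both treatments, with no replicate 2. The progenitors were sorted as individual cells and expanded as clonal lines that carry the HoxB8 construct. The sources used here do not say whether each replicate is a separate clone. The sample labels call the *Vim-/-* cells a knockdown, whereas the methods derive them from knockout mice.

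NF-κB is a family of dimers held in the cytosol by IκB proteins until a signal such as LPS, sensed through TLR4, activates the IKK complex. The kinases IKKα (*Chuk*) and IKKβ (*Ikbkb*) act with the scaffold NEMO (*Ikbkg*) and phosphorylate IκB for degradation, which frees the dimers to enter the nucleus. The related kinases IKKε (*Ikbke*) and TBK1 (*Tbk1*) phosphorylate interferon regulatory factors downstream of the same receptors. In neutrophils NF-κB drives cytokine genes and prolongs survival.

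The value used for each gene was the authors' mean of the normalized counts over all libraries, referred to as the mean count. It was the same in the 4 tables for every gene, with a largest difference of 0. The mean covers both genotypes and both treatments, and by the sample labels 60.0% of the libraries were *Vim-/-* and 50% were given LPS. Whether the authors' fit held further libraries is not stated in the sources used here. Fold changes, standard errors and p-values in the tables are the authors' own comparisons and were not used, so no difference between genotypes or between LPS-treated and unstimulated neutrophils is given. Values per library were not analysed here. How deeply each library was sequenced is unknown for this reason, no spread between replicates accompanies any level, and the loss of *Vim* could not be checked library by library. Over all genes the mean count ranged from 5.08 to 1290830, with a median of 907, and the means summed to 55507688.

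Markers of neutrophils and of other cell types were examined first. All 10 neutrophil markers on the list were in the tables, with mean counts from 11373 for *Ly6g* to 1290830 for *S100a9*, which encodes a subunit of calprotectin and had the highest mean of all genes. Markers of lymphoid, dendritic and erythroid cells were at low levels or not listed. Of 3 markers each, the T cell list had 1 in the tables, *Cd3d* at a mean count of 250.3, the B cell list had 1, *Cd79a* at 83.8, the dendritic cell list had 1, *Itgax* at 264.5, and the erythroid list had 0. By contrast, all 3 eosinophil markers were present, with mean counts of 268319 for *Prg2* and 142776 for *Epx*, both of which encode eosinophil granule proteins, and of 4599 for *Siglecf*, a surface receptor. The median of these 3 was 142776, beside 107915 for the 10 neutrophil markers. Of the 4 mast cell and basophil markers 3 were in the tables, with mean counts of 26296 for *Cpa3*, a mast cell protease, 2802 for *Mcpt8* and 1075 for *Kit*, whereas *Fcer1a* was not listed. All 4 monocyte and macrophage markers were listed, from 1256 for *Ccr2* to 26480 for *Ly6c2*. These levels are means over a bulk population, in which a small number of cells with much of a transcript and many cells with little cannot be told apart. The part played by such cells in the levels of the NF-κB and IKK genes was not tested.

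**Figure D1:**
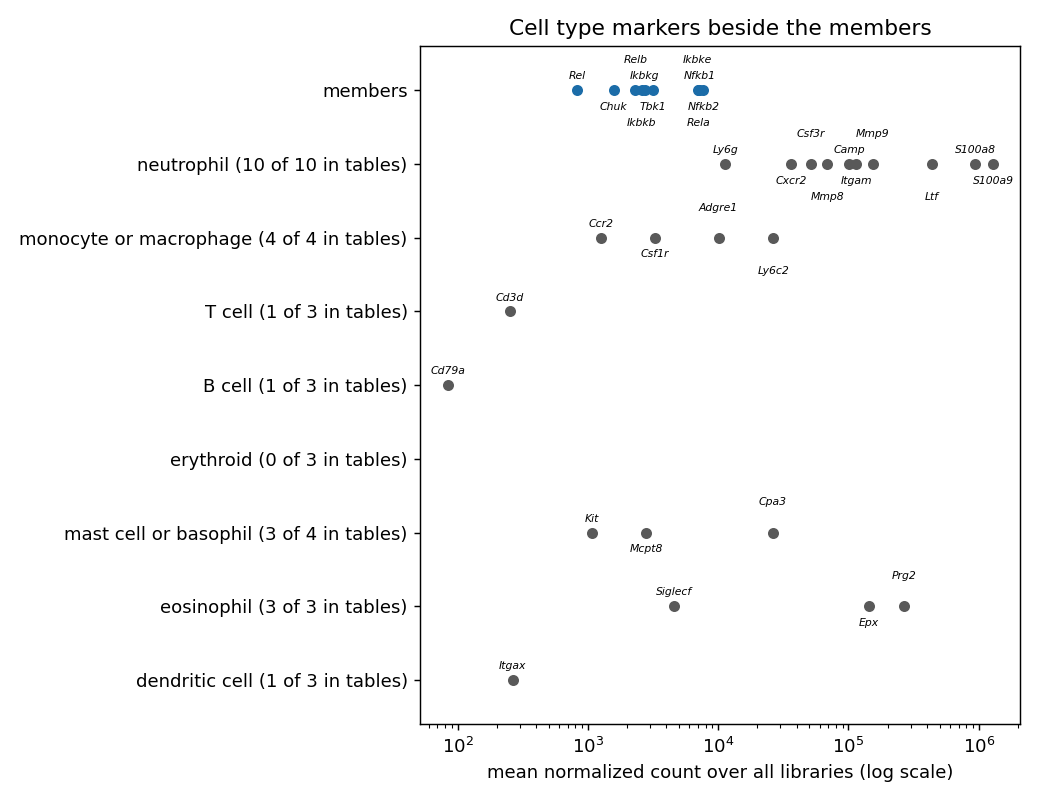
Mean normalized count over all libraries (log scale) of the 10 NF-κB and IKK genes (blue) and of the cell type markers found in the tables (grey), with 1 point per gene. The neutrophil markers lie at 11373 or higher, above every NF-κB and IKK gene, and the eosinophil markers *Epx* and *Prg2*, the monocyte marker *Ly6c2* and the mast cell marker *Cpa3* lie among them.

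The NF-κB and IKK genes were well represented among the transcripts. Their mean counts ran from 828 for *Rel* to 7679 for *Nfkb2*, with a median of 2931. Of the 10 genes, 9 lay above the median gene, and their median percentile was 74.0, where the percentile is the share of the other genes with a lower mean count and the middle of all genes is 50. The highest percentile was 89.4, for *Nfkb2*. A group of 4 genes lay close together at the top, namely *Nfkb2*, *Nfkb1* at 7150, *Rela* at 7083 and *Ikbke* at 6973. The other 6 were spread below them. *Tbk1* had a mean count of 3139 and *Ikbkg* of 2724. *Ikbkb* followed at 2580 and *Relb* at 2312, with *Chuk* at 1578 and *Rel* last. Without a spread between libraries it cannot be said which neighbours in this order differ.

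**Figure D2:**
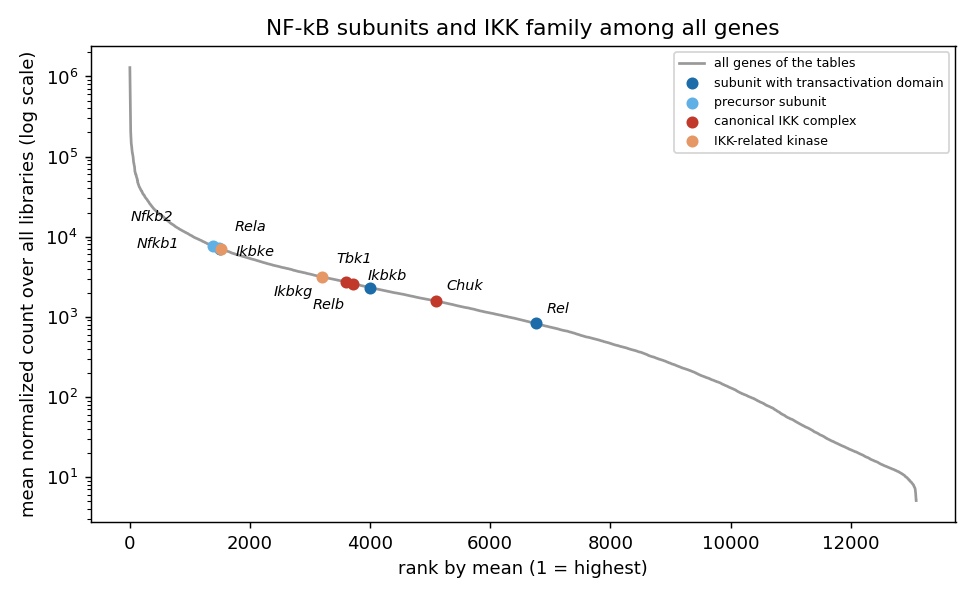
Mean normalized count (log scale) of the 13091 genes against their rank, with the 10 NF-κB and IKK genes marked by role. The points of *Nfkb2*, *Nfkb1*, *Rela* and *Ikbke* coincide near rank 1390 to 1526, and *Rel* lies furthest down at rank 6757.

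A longer transcript yields more reads, so the genes were compared with each other per length, as mean count per kb of the longest annotated transcript. Lengths were found for 12021 genes, 91.8% of the tables, and the median of these genes was 309.4 per kb. Because the longest model of a gene need not be the one expressed, ratios are also given as a range over 4 measures of length, which were the longest transcript, the principal transcript of the annotation, the union of all exons and the coding length.

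Among the 3 subunits that carry a transactivation domain, *Rela* had the highest level in the mean over both genotypes and both treatments. *Rela* encodes p65, the activating partner of the most common NF-κB dimer, and lies on chromosome 19 of GRCm38 from 5637483 to 5648130. Its level was 2608 per kb, at the 88.5th percentile of genes with a length, and it ranked first of the 10 genes under all 4 measures of length. *Rel* encodes c-Rel, a subunit best known from lymphocytes, and lies on chromosome 11 from 23736847 to 23770970. Its level was 110.9 per kb, and it ranked last of the 10 genes under all 4 measures. *Rela* stood 23.5-fold above *Rel* per kb of longest transcript, and from 9.17-fold to 23.5-fold over the measures of length. The lowest of these ratios came from the coding length, since the longest transcript of *Rel* is 7466 bases and its coding part 1764. *Relb*, which encodes the partner of p52 in the alternative pathway, lies on chromosome 7 from 19606217 to 19629438 and had a level of 706.5 per kb. *Rela* exceeded *Relb* by 2.49-fold to 3.87-fold, depending on the length used.

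*Nfkb1* and *Nfkb2* encode the precursors p105 and p100, which are processed to the DNA-binding subunits p50 and p52 and which also retain dimers in the cytosol through their ankyrin repeats. Their mean counts were almost equal, with *Nfkb2* 1.07-fold above *Nfkb1*. Per kb of longest transcript *Nfkb2* had 1997 and *Nfkb1* had 1723. The ratio ran from 1.16 to 2.83 over the measures of length, and the highest value came from the union of exons. For *Nfkb1*, on chromosome 3 from 135584655 to 135691547, the union of exons of its 10 annotated transcripts is 12061 bases, against 4117 for the principal transcript. The longest *Nfkb1* transcript is a model with 1 exon. Of the summed level of the 5 subunits, *Rela* made up 36.5%, *Nfkb2* 27.9%, *Nfkb1* 24.1%, *Relb* 9.89% and *Rel* 1.55% per kb of longest transcript. *Rela* held from 32.8% to 43.7% and *Rel* from 1.40% to 4.10% over the measures of length. The share of *Nfkb1* ran from 11.2% to 24.1%, and by the union of exons it lay beside *Relb* at 11.3%.

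In the kinase family *Ikbke* and *Tbk1* had higher levels per kb than *Ikbkb* and *Chuk* under all 4 measures of length, although the gap between *Tbk1* and *Ikbkb* was small by some of them. *Ikbke*, on chromosome 1 from 131254343 to 131279606, had a level of 1191 per kb and *Tbk1*, on chromosome 10 from 121546455 to 121586787, had 1038. *Ikbkb*, on chromosome 8 from 22659212 to 22706589, had 532.6, and *Chuk*, on chromosome 19 from 44073335 to 44107480, had 450.7. The longest *Ikbke* transcript is a model with 4 exons and 5856 bases. Per kb of its principal transcript, of 3251 bases, the level of *Ikbke* was 2145. *Ikbke* stood 2.24-fold to 5.72-fold above *Ikbkb* and 2.49-fold to 4.76-fold above *Chuk* over the measures of length. *Tbk1* stood 1.26-fold to 5.94-fold above *Ikbkb* and 2.03-fold to 2.59-fold above *Chuk*, and without a spread between libraries it cannot be said whether the smaller of these gaps exceed it. Of the summed level of the 4 kinases, *Ikbke* made up 37.1% to 49.7%. The order within each pair was less certain. *Ikbke* ranged from 0.963-fold to 2.26-fold of *Tbk1*, and *Ikbkb* from 0.436-fold to 1.61-fold of *Chuk*, so the direction in both pairs depended on the length used. The low end in each case came from the union of exons, which for *Ikbkb* reaches 19078 bases against 3580 for the principal transcript.

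*Ikbkg*, the X-linked gene of the regulatory scaffold NEMO, lies from 74393290 to 74453854 and had a level of 389.5 per kb. Its place among the 10 genes moved from ninth by the longest transcript to the fifth by the coding length, as its coding part is 1290 bases of a longest transcript of 6994. It also shares 418 exonic bases, 5.15% of its own, with *G6pdx*, a gene of the pentose phosphate pathway that is annotated on the opposite strand. The mean count of *G6pdx* was 70537, which is 25.9-fold that of *Ikbkg*. Whether reads were assigned by strand is not given in the sources used here, so the level of *Ikbkg* is uncertain. *Nfkb2* shares 299 exonic bases with *Psd* on the opposite strand, but the mean count of *Psd* was only 57.1. *Nfkb2* and *Ikbke* also share exonic bases with noncoding genes of the opposite strand that were not listed in the tables, 531 bases with 1 such gene for *Nfkb2* and 159 and 65 bases with 2 for *Ikbke*.

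**Figure D3:**
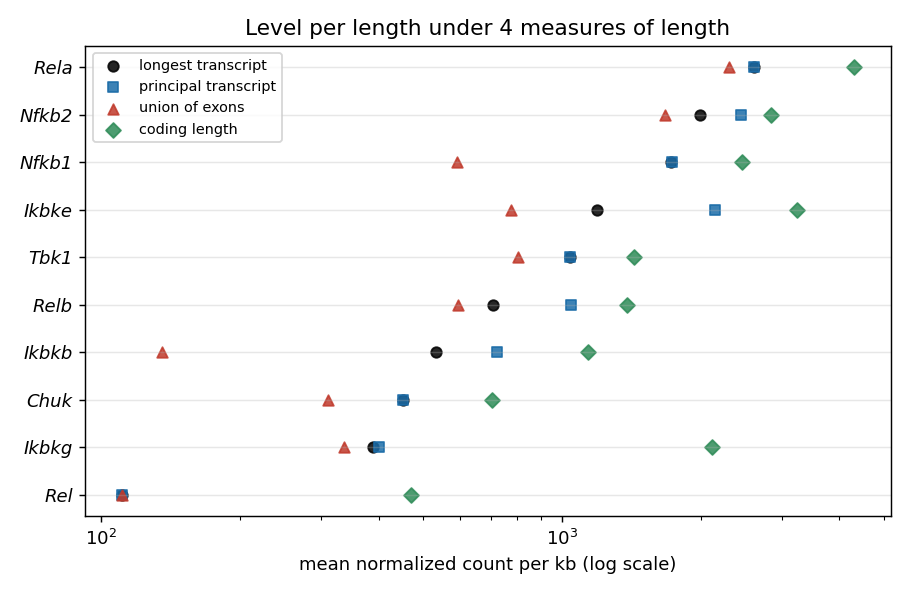
Mean normalized count per kb (log scale) of the 10 NF-κB and IKK genes, with 1 symbol for each of 4 measures of length and the genes ordered by the longest transcript. *Rela* is highest and *Rel* lowest by every measure, while *Ikbkb* spans 135.3 to 1136 and *Nfkb1* spans 592.8 to 2454.

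The genes around NF-κB and the IKK family were taken from a list of 34 genes of TLR4 signalling and NF-κB regulation, all of which were in the tables. Their median level was 1126 per kb of longest transcript and 28 of them exceeded the median gene, beside a median of 872.3 and 9 of 10 for the NF-κB and IKK genes. By the union of exons these counts were 29 of 34 and 8 of 10, and by the coding length 27 of 34 and 8 of 10. Only 6 of the 34 exceeded *Rela*, and this number was between 4 and 7 over the measures of length. The highest was *Nfkbia*, which encodes IκBα, the inhibitor that retains p65 in the cytosol. *Nfkbia* had a level of 22457 per kb, and it stood 8.61-fold to 9.55-fold above *Rela* over the measures of length. The other classical inhibitors were far lower, with 1459 per kb for *Nfkbib* and 806.9 for *Nfkbie*.

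The IκB proteins and feedback regulators had a higher median level than the NF-κB subunits, and the subunits a higher one than the IKK family, under all 4 measures of length. The group of 9 genes had a median of 2328 per kb of longest transcript, which is the value of *Bcl3*, beside 1723 for the 5 NF-κB subunits and 532.6 for the 5 IKK family genes. Per kb of the union of exons these medians were 1923, 595.2 and 335.9. *Bcl3* and *Nfkbiz* encode nuclear IκB proteins that can also act as coactivators of NF-κB. Without both, the median of the other 7 was 2242 per kb of longest transcript. *Nfkbid*, at 2644 per kb, was kept among these 7. *Nfkbiz* had 5486 per kb and *Tnfaip3*, which encodes the deubiquitinase A20, had 2242. *Tnip1*, a partner of A20, had 2724. *Cyld*, another deubiquitinase, had 504.2 per kb of longest transcript. Since LPS-treated and unstimulated libraries enter the same mean, these levels belong to neither condition alone.

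Upstream, the coreceptor *Cd14* stood apart at 21057 per kb, whereas *Tlr4* itself had 1303 and its partner *Ly96* had 619.4. Among the adaptors *Myd88*, which links TLR4 to the IRAK kinases, had 3893 per kb. *Ticam1*, which encodes the adaptor TRIF that leads to TBK1, had 485.8, and its bridging partner *Ticam2* had 54.5 per kb of longest transcript. *Map3k14* encodes NIK, the kinase that activates IKKα in the alternative pathway, and had 131.6 per kb. *Map3k7*, which encodes TAK1 and acts on IKKβ, had 541.4. Of the scaffolds that bind TBK1 and IKKε, *Tbkbp1* had 2202 per kb, *Tank* 1541 and *Azi2* 834.7.

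**Figure D4:**
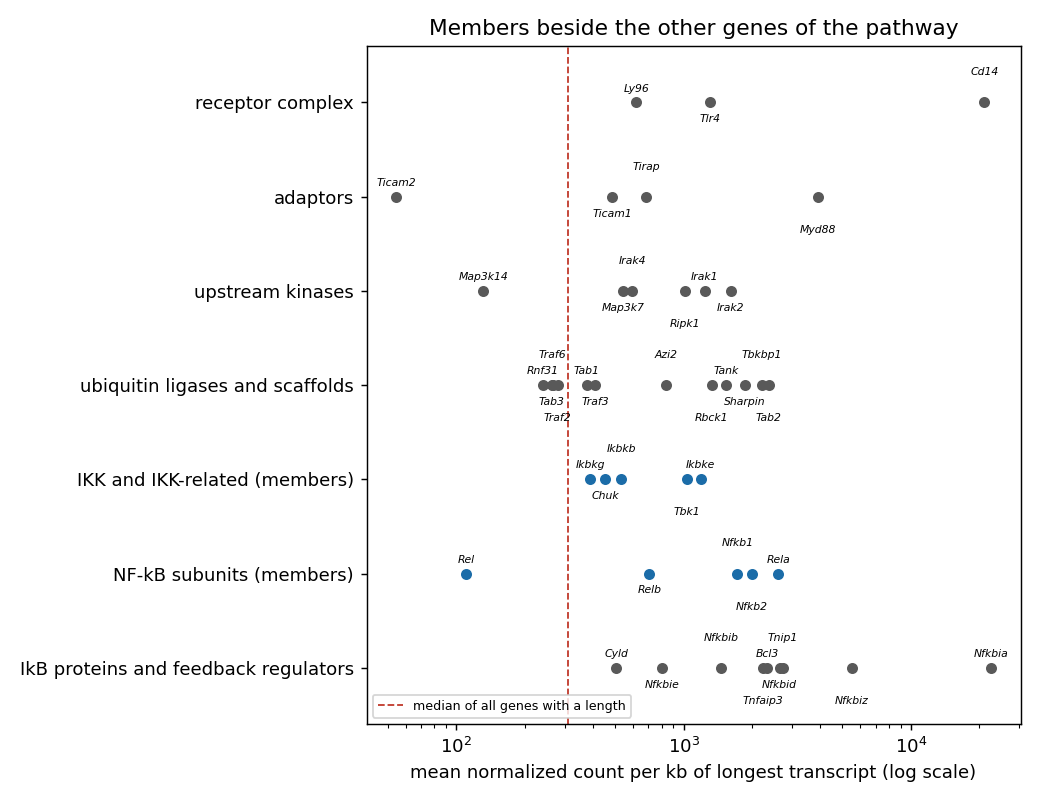
Mean normalized count per kb of longest transcript (log scale) for the 10 NF-κB and IKK genes (blue) and the 34 other pathway genes (grey), grouped by role, with the median of all genes with a length at 309.4 (dashed line). *Nfkbia* at 22457 and *Cd14* at 21057 lie furthest right, *Rela* is the highest of the blue points at 2608, and *Rel* is the only blue point left of the line.

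Promoter sequences, taken from RefSeq on GRCm38.p6, were found for 7 of the 10 genes in 12 windows of 300 bases, each from 250 bases before to 50 bases after an annotated start. Windows were not found for *Relb*, *Nfkb1* and *Ikbkb*. The κB consensus, a pattern of sites that NF-κB dimers bind, was searched on both strands without mismatch. It reads GGG, A or G, any base, A or T, C or T, C or T, and CC. It was present in windows of 2 of the 7 genes, *Nfkb2* and *Rel*, beside 5.93% of the 9778 genes of the tables that have a window and 5.14% of all 27025 genes. *Nfkb2* held matches at 4 separate places and *Rel* at 1. These sites are printed because they are where genes of the family carry a match to the consensus for their own products, with 10 bases on each side and the match in capitals.

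*Nfkb2*, chr19:46304688-46304717, plus strand: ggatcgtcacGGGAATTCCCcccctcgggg
*Nfkb2*, chr19:46304716-46304745, plus strand: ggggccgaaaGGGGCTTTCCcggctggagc
*Nfkb2*, chr19:46305449-46305478, minus strand: ggcttttgtgGGGACATTCCtgccgtcgga
*Nfkb2*, chr19:46305695-46305724, plus strand: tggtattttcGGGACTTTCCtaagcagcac
*Rel*, chr11:23771042-23771071, minus strand: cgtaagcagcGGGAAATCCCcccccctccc

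The first *Nfkb2* site and the *Rel* site each also match on the opposite strand with a shift of 1 base, and were counted once. Of the 2 genes with a match, *Nfkb2* had 1997 per kb of longest transcript and *Rel* had 110.9. A match describes the letters in the window and shows neither binding nor its absence elsewhere.

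The promoters of the family also differed in base composition. Of the 12 windows 4 belong to *Ikbkg* and 3 to *Nfkb2*, and the GC content ranged from 46.0% to 75.0%, beside a median of 60.0% for windows of the genes in the tables. The *Rel* window had the highest GC content. The *Ikbke* window had 54.0% and an observed over expected ratio of CpG of 0.190, whereas that of *Tbk1*, its closest relative, had 69.0% and a ratio of 1.05. The median ratio for windows of the genes in the tables was 0.736.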

How the data were processed

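Libraries were made from polyA RNA. Per the labels and the methods, the authors removed adapters with Cutadapt 4.4, used STAR 2.7.10b for alignment to mm10 and for counting, obtained covariates for batch effects from RUVSeq, and normalized and modelled the counts with DESeq2 1.26.0. The gene annotation and strand setting are not given in the sources used here. The deposited signal used was baseMean, the authors' mean of the normalized counts over the libraries. The 9 other columns of each of the 4 files hold the authors' own comparisons (log2 fold change, its standard error, Wald statistic, p-values and labels made from them) and were not used. A count model had been planned for counts per library, which these tables do not hold, so no test was made and no p-value is given.

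Ranks, levels per kb and ratios were computed in Python 3.11.15 with numpy 2.4.6 and pandas 2.3.3, and figures were drawn with matplotlib 3.10.9. Positions and transcript lengths came from GENCODE M21 on GRCm38, which is the build of mm10. Symbols matching exactly 1 annotated gene were used. The principal transcript is the longest with the best APPRIS tag (11169 genes), or the longest transcript for genes without one. The coding length is the longest coding sequence. Ranking, length and motif functions were tested on simulated data. The genes, the pathway list and the markers were chosen with earlier results of these data known. All 10 genes and any gene of the pathway list could be named.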

Additional observations from a re-analysis of the deposited data

How the results depend on the processing

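No level has a replicate error, so any change with the processing is given as a value. Among the 10321 genes with a mean count of at least 100, the median percentile of the NF-κB and IKK genes was 67.1, against 74.0 among all genes. Of the 10 genes, 5 kept their place in the order when the union of exons replaced the longest transcript, 6 with the principal transcript and 2 with the coding length. The median of the pathway list was 738.6 per kb of exon union, 1128 per kb of principal transcript and 2256 per kb of coding length. With a looser κB pattern (GGG and CC with any 5 bases between them), 6 of the 7 genes with a promoter window held a match, beside 70.5% of the genes in the tables with a window. The principal transcript, the coding length taken from the annotation, the union of exons for the pathway list, and the comparison with promoters of the genes in the tables were chosen after seeing the data. The coding length from a protein table and all alternatives that need counts per library, among them leaving out replicates, were not run. No paired analysis was possible because the values are means over all libraries and carry no replicate number.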
